A study of Homo sapiens with 6 samples.

Results

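The 7 genes described here, MEIS1, MEIS2, MEIS3, PBX2, PBX3, PBX4 and PKNOX1, encode homeodomain proteins that act as DNA-binding cofactors of HOX proteins, and were chosen by name out of 20162 protein-coding genes. No measured value enters the rule, but earlier results of these data were known when the genes were chosen. For each gene, every peak of 2 histone marks was taken from the gene body with 20 kb on either side. OCI-AML3, an established human acute myeloid leukemia (AML) line with mutant NPM1 (mtNPM1), mutant DNMT3A and mutant NRAS, received either a control guide RNA, called sgNeg, or sgNpm1A, a guide RNA directed at mtNPM1, and was grown for 3 days according to the labels. ChIP-seq peaks of H3K27Ac (acetylated lysine 27 of histone H3, found at active enhancers and promoters) and of H3K4me3 (trimethylated lysine 4 of histone H3, found at active promoters) were called in 1 library per guide and mark, which gave 4 peak lists. All labels name this 1 line, whose DNMT3A and NRAS mutations the control cells would share. However, the names of the deposited lists hold the tag OCI2 for both H3K27Ac lists and OCI3 for both H3K4me3 lists, and the builds differ as well. The study also used OCI-AML2, a line with wild-type NPM1. No source used here explains the tag, so it is not settled whether the H3K27Ac lists are from the same line and experiment as the H3K4me3 lists, and every H3K27Ac value is given as labelled. The guides were compared within a mark, where the tag is the same. The lists hold no measure of NPM1 editing, and no group had a replicate. Hence there is no test and no p-value for any difference between guides, a guide and its library cannot be told apart, and intervals cover counting error only. In bulk chromatin, a mark carried by fewer cells and less of it per cell cannot be told apart.

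MEIS, PKNOX and PBX proteins belong to the TALE class of homeodomain proteins, named for a loop of extra amino acids in the homeodomain. PBX proteins bind DNA next to HOX proteins and sharpen the sequences that HOX proteins select. MEIS and PKNOX proteins bind PBX, help to keep it in the nucleus, and join the complexes on DNA. In blood, MEIS1 and PBX3 are known partners of HOXA9, and co-expression of HOXA9 with MEIS1 transforms myeloid progenitors in mice. AML with mtNPM1 is known for high expression of HOXA and HOXB genes and of MEIS1.

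Regulatory DNA at 3 of the gene starts, and at the intronic places that carried the highest sgNpm1A acetylation within MEIS1 and PBX3, is printed here so that each can be read beside its peaks. The promoter windows are the 250 bases just upstream of a RefSeq start on GRCh38, on the strand of the gene, and were credited to RefSeq. The intronic sequences are those of H3K27Ac peaks on GRCh37, on the forward strand. Capitals mark CpG dinucleotides, the pairs of bases at which vertebrate DNA is methylated.
MEIS1 promoter, chr2:66434875-66435124 (GRCh38, + strand): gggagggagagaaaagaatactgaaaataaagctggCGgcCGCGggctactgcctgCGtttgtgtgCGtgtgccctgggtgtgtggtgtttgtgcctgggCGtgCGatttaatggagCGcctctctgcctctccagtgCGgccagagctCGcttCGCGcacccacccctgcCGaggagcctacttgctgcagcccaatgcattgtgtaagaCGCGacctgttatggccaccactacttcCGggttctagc
PBX2 promoter, chr6:32190203-32190452 (GRCh38, - strand): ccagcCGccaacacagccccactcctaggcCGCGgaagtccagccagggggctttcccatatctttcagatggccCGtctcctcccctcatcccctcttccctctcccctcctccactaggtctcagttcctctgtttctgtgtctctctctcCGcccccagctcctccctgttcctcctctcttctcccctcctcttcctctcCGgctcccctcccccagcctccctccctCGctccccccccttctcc
MEIS3 distal promoter, chr19:47422234-47422483 (GRCh38, - strand): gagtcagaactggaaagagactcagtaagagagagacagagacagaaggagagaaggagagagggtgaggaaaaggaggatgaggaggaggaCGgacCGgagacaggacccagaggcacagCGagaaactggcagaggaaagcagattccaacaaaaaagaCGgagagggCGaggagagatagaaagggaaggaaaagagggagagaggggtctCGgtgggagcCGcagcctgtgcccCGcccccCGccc
MEIS1 intronic peak, chr2:66690660-66690862 (GRCh37): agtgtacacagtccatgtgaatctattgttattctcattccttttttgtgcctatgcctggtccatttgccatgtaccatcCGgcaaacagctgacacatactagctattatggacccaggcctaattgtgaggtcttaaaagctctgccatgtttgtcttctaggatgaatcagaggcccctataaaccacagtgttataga
PBX3 intronic peak, chr9:128670567-128670741 (GRCh37): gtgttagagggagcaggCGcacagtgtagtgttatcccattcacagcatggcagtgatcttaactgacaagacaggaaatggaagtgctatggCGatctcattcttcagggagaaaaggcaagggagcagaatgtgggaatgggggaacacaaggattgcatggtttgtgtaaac

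The MEIS1 and PBX2 windows are shown because each lay entirely under a wide sgNeg H3K27Ac peak and entirely outside the sgNpm1A peaks. The MEIS3 distal window is shown because 209 of its 250 bases lay under the only promoter peak of H3K4me3 that any of the 7 genes had in sgNpm1A. The MEIS1 window holds 16 CpG, equal to the median of 22198 such windows of all genes, whereas the PBX2 window holds 7, the MEIS3 distal window 9, and the windows of PBX3 and PKNOX1 36 each. The MEIS site TGACAG was searched on both strands and was present in 12.1% of all windows. Among the 7 genes it was found in the PBX3 window alone. The HOX-PBX site TGATTTAT, present in 0.559% of all windows, was found in 1 of the 2 MEIS2 windows, and the joint PBX-MEIS site, the letters TGAT followed directly by the MEIS site (0.167% of all windows), in no window of the 7 genes. These are matches of letters only. Neither intronic sequence holds any of the 3 motifs.

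Peaks of the 4 lists were compared by their rank within a list, since the lists differ in size and in their lowest fold enrichment. The H3K27Ac lists held 327715 peaks in sgNeg and 317059 in sgNpm1A, and the H3K4me3 lists 353628 and 106641. The depth of the libraries is unknown. For H3K4me3 the background pileup recovered from the fold values was 3.81 fragments in sgNeg and 2.93 in sgNpm1A, and the lowest pileup at a peak was 11 and 10 fragments. H3K27Ac positions are on GRCh37 (hg19) and H3K4me3 positions on GRCh38 (hg38), so positions were compared directly only within a mark. A promoter is the 1 kb on either side of any annotated transcript start. The starts are more numerous for H3K27Ac (GENCODE on GRCh37) than for H3K4me3 (RefSeq on GRCh38), so counts of promoters are not alike between marks. The percentile of a promoter is that of its peak of highest fold enrichment among all peaks of the list, and is 0 where it has no peak.

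The starts of MEIS1, PBX2, PBX3 and PKNOX1 carried strong, wide H3K27Ac peaks in sgNeg and only weak, narrow or displaced ones in sgNpm1A. MEIS2, MEIS3 and PBX4 had their highest promoter peak at internal starts in both lists, with fold enrichments of 2.88 to 3.66. All 7 genes carried a H3K27Ac promoter peak in the sgNeg list, as did 79.1% of all coding genes, and 4 of the 7 reached percentile 99, as did 15.4% of all coding genes. In sgNpm1A, all 7 again had a promoter peak, against a background of 57%, but none reached percentile 99, which 0.992% of all coding genes did. The median promoter percentile of the 7 genes was 99.4 in sgNeg and 38.1 in sgNpm1A, beside 92.4 and 23.0 over all coding genes. In sgNpm1A, 5 of the 7 genes had a lower percentile, and 82.9% of all promoters with a sgNeg peak were lower as well. By any annotated start, each of the 7 had a promoter peak in sgNpm1A. Of all promoters with a sgNeg peak, 34% had none (41.8% of those at or above percentile 99). No member had a peak in sgNpm1A alone, as 4.86% of all coding genes did. At PBX3 and PKNOX1, however, none of the highest sgNeg promoter peak was covered in sgNpm1A. The 7 genes have 5 to 36 annotated starts each, and more starts give more chances of a peak. The shares over all genes were not matched for the number of starts. The median change was -61.2 percentile points, beside -30.5 over all genes with a peak. With a promoter window of 2.5 kb, the change at MEIS1 shrank from -76.5 to -3.69. The changes at PBX4 and PKNOX1 shrank from -38.0 to -20.2 and from -61.2 to -21.1. Most of the 7 sgNpm1A peaks lay at internal starts or off the main start. With the start of the gene record alone, 6 of the 7 genes kept a promoter peak in sgNeg (69.8% of all coding genes), but only 1, MEIS1, in sgNpm1A (32.3%). The MEIS1 record starts 1673 bp upstream of the RefSeq start, and no sgNpm1A peak lay within 1 kb of that RefSeq start.

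**Figure D1:**
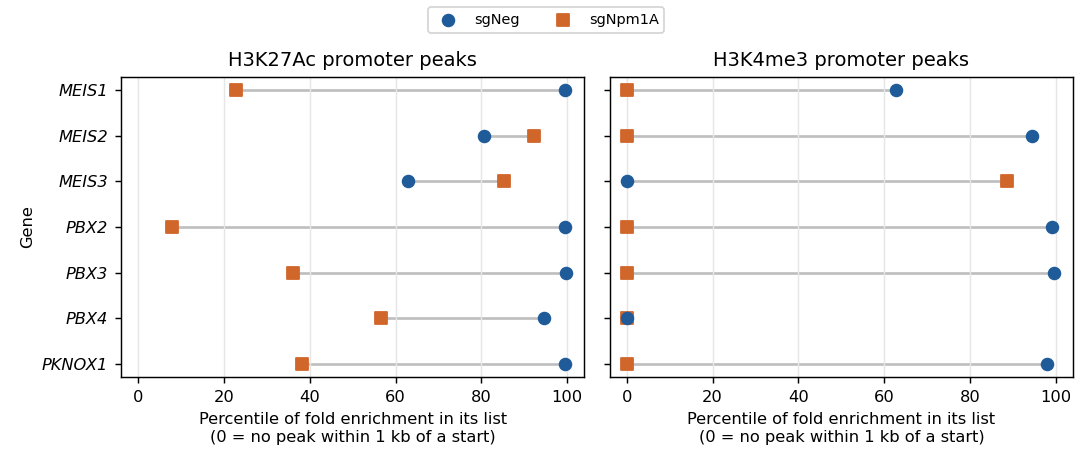
Percentile of the highest promoter peak of each gene within its own list, for H3K27Ac (left) and H3K4me3 (right), with 1 point per guide and gene and 0 for no peak. For H3K27Ac, MEIS1, PBX2, PBX3 and PKNOX1 sit above 99 in sgNeg and at 7.81 to 38.1 in sgNpm1A, and for H3K4me3 only MEIS3 has a promoter peak in sgNpm1A.

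MEIS1, the partner of HOXA9 in myeloid leukemia, had the widest peak of the 7 regions. Its sgNeg H3K27Ac peak at chr2:66659241-66678421 spanned 19181 bp at a fold enrichment of 6.52. By width it ranked 129 of 327715 peaks, and by fold enrichment 1836. It ran from position -3016 to position 16164 relative to the RefSeq start, covered 14 of the 17 annotated starts of the gene and its whole printed promoter window, and made up 80.0% of the acetylated length of the region. In sgNpm1A, the promoter peak at chr2:66660088-66660393 was 306 bp wide with a fold enrichment of 2.77 (percentile 22.9). This peak lay at -2169 to -1864 bp from the RefSeq start, within 1 kb of only 1 of the 17 annotated starts and over none of them. It was the only sgNpm1A peak inside the 19181 bp and lay under 1.60% of that length. Peaks covered 23970 bp of the region in sgNeg but 4493 bp in sgNpm1A, a ratio of 0.187, while the number of peaks was nearly unchanged at 12 and 11.

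Within the introns of MEIS1, each list had 8 H3K27Ac peaks, only 1 of which was shared. Their fold enrichment ranged from 2.54 to 2.91 in sgNeg and from 2.66 to 3.74 in sgNpm1A, with median percentiles of 17.8 and 37.6. They covered 3272 bp in the sgNeg list and 2977 bp in the sgNpm1A list. Acetylation inside the first 16164 bp of the gene is not in these numbers, because the wide sgNeg peak was counted whole as a promoter peak. The highest intronic peak, the sgNpm1A peak at chr2:66690660-66690862 whose sequence is printed above, reached percentile 95.7 and had no counterpart in sgNeg. It began 28403 bp downstream of the RefSeq start, and an internal transcript start lies at 26673 bp. When the promoter window was widened to 2.5 kb, this peak counted as a promoter peak of MEIS1, and the change in promoter percentile shrank from -76.5 to -3.69.

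H3K4me3 at MEIS1 was modest in sgNeg and nearly absent in sgNpm1A. The sgNeg promoter peak at chr2:66434344-66434682 was 339 bp wide with a summit pileup of 16 fragments (95% Poisson interval 9.15-26.0), a fold enrichment of 3.54 and percentile 62.6. A wider peak, 1212 bp long (fold enrichment 4.16, percentile 85.2, width rank 3926 of 353628) lay 2064 to 3275 bp downstream of the RefSeq start. That stretch holds an internal start of the GRCh37 annotation at 2268 bp, so that the strongest H3K4me3 of the region did not sit on the RefSeq start. In sgNpm1A, the region held 1 H3K4me3 peak, of 299 bp and fold enrichment 3.05, against 10 in sgNeg. It lay 28134 to 28432 bp from the start and, by distance from the start, touched the highest sgNpm1A H3K27Ac peak, which ran from 28403 to 28605 bp. Distances assume the same spacing in both builds. The spacing was checked only for the pairs of RefSeq starts of MEIS2 and of MEIS3, where it was the same.

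**Figure D2:**
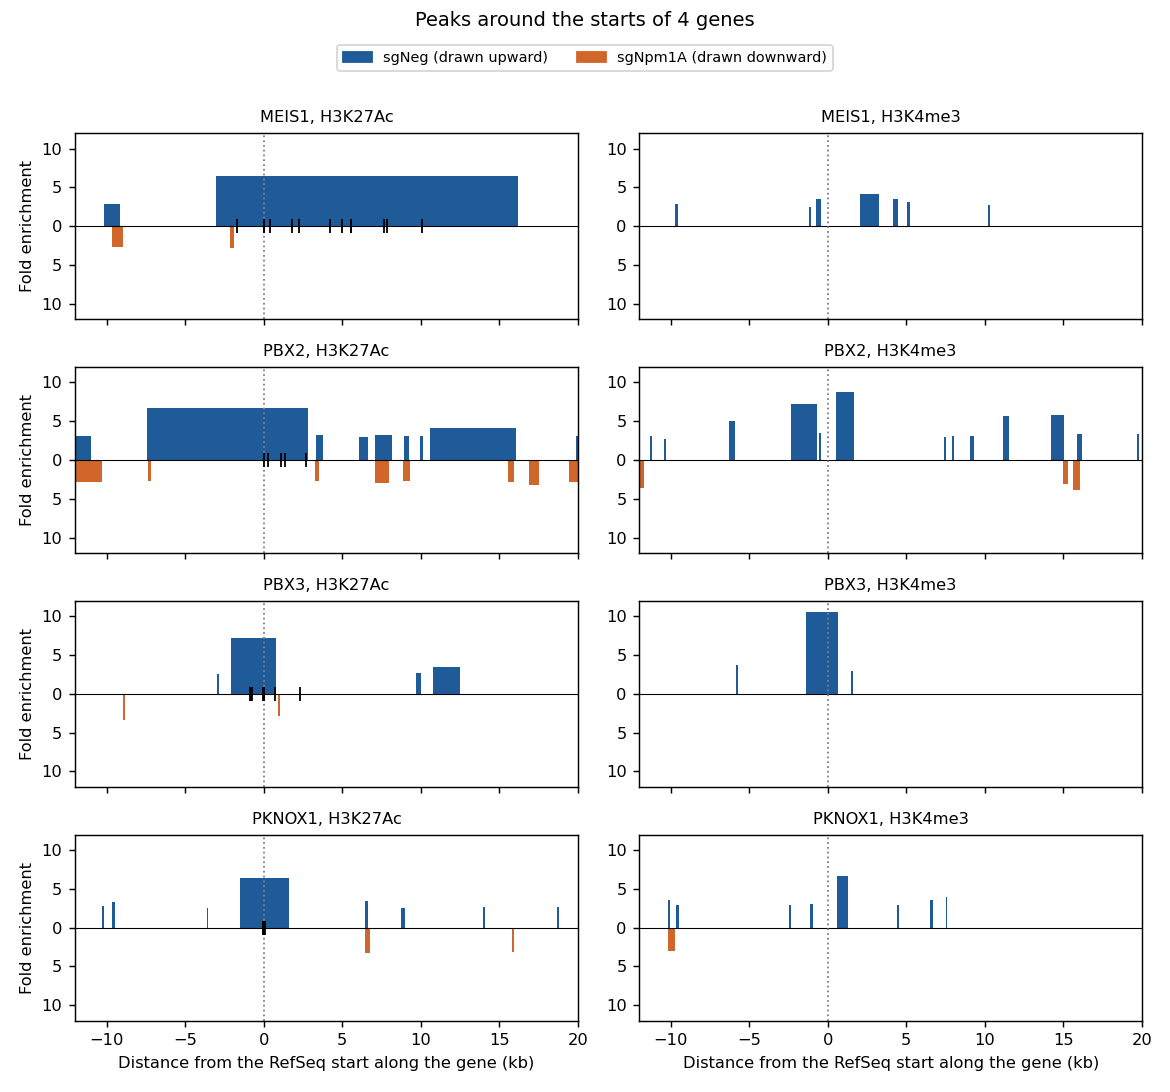
Peaks of both marks around the RefSeq start (dotted line) of MEIS1, PBX2, PBX3 and PKNOX1, with distance along the gene in kb on the horizontal axis and fold enrichment on the vertical axis, sgNeg upward and sgNpm1A downward. Black ticks on the H3K27Ac panels are annotated GRCh37 starts, and the wide sgNeg blocks over the starts, of 19181 bp at MEIS1 and 10243 bp at PBX2, face at most short sgNpm1A peaks.

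MEIS2, a paralog of MEIS1 with roles in development, had little of either mark for its size. Its promoter peak of highest fold enrichment lay at an internal start in both lists, at chr15:37329512-37329722 in sgNeg (211 bp, fold enrichment 3.08, percentile 80.6) and at chr15:37329474-37329682 in sgNpm1A (209 bp, 3.54, percentile 92.3). The sgNpm1A peaks lay under 81.0% of the sgNeg peak, so this was the same place in both. A narrow sgNeg H3K4me3 peak (162 bp, fold enrichment 3.12) stood at the same distance from the start, 61636 to 61797 bp. MEIS2 was the only region of the 7 with more acetylated length in sgNpm1A than in sgNeg, 5113 bp against 3045 bp, but both were small parts of the 252.096 kb region, 2.03% and 1.21%. For H3K4me3, the sgNeg list held 4 promoter peaks, the highest at chr15:37100839-37101301 with a pileup of 23 fragments (14.6-34.5), a fold enrichment of 4.99 and percentile 94.4. None was present in sgNpm1A.

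MEIS3, the third MEIS paralog, was the only gene of the 7 whose promoter ranked higher in sgNpm1A for both marks. For H3K27Ac, the highest sgNeg promoter peak at chr19:47920480-47921478 had a fold enrichment of 2.88 (percentile 62.9), and the highest sgNpm1A promoter peak at chr19:47919635-47919825 had 3.34 (percentile 85.2). These are different places among the 13 annotated starts of the gene, and with the start of the gene record alone the order turned, with percentile 59.7 in sgNeg and no peak in sgNpm1A. For H3K4me3, MEIS3 had no sgNeg peak within 1 kb of its 2 RefSeq starts. In sgNpm1A, the peak at chr19:47422275-47422772 was 498 bp wide and had a pileup of 17 fragments (9.90-27.2), a fold enrichment of 4.58, percentile 88.6 and fold rank 9547 of 106641. It lay at -539 to -42 bp from the distal RefSeq start, which is 2706 bp from the nearest start of the GRCh37 annotation, and no H3K27Ac peak of either list touched the printed window. A promoter peak in sgNpm1A alone was found for 1.68% of all coding genes. Near internal GRCh37 starts, placed by distance, sgNeg did have H3K4me3 peaks, the highest at 7594 to 8063 bp (fold enrichment 3.74, percentile 72.7), and no sgNpm1A peak lay there. With a promoter window of 2.5 kb, a sgNeg peak of the gene body counted too, and the difference in percentile fell from 88.6 to 15.9. The 12 sgNeg H3K4me3 peaks of the MEIS3 region lay in the gene body or the flanks, with fold enrichments of 2.70 to 4.16.

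PBX2, a broadly expressed member of the PBX family, lies in the gene-dense MHC region of chromosome 6. Its sgNeg H3K27Ac peak at chr6:32155164-32165406 spanned 10243 bp with a fold enrichment of 6.64 (percentile 99.5, width rank 763) and covered all 5 annotated starts. The same peak reached the starts of GPSM3 and NOTCH4, so it is not a measure of PBX2 alone. In sgNpm1A, the promoter peak at chr6:32154440-32154709 was 270 bp wide with a fold enrichment of 2.67 (percentile 7.81), the lowest of the 7 genes. The sgNpm1A peaks lay under 1.86% of the wide sgNeg peak, and the 191 bp concerned lay at its upstream end, at -7388 to -7198 bp from the PBX2 start. The region as a whole was 49.1% acetylated in sgNeg and 18.8% in sgNpm1A, and 8 of the 13 sgNeg peaks lay at promoters of neighbouring genes.

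For H3K4me3, the sgNeg peaks of PBX2 flanked the start and left the printed 250 bases bare. One, at chr6:32188541-32189705, began 497 bp downstream of the start and had a pileup of 41 fragments (29.4-55.6), a fold enrichment of 8.74 and percentile 99.1. Another, at chr6:32190921-32192515, lay at -2313 to -719 bp, had a fold enrichment of 7.28 (percentile 98.3) and also reached a start of GPSM3. The window between them was fully under the wide H3K27Ac peak. In sgNpm1A, no H3K4me3 peak remained at the PBX2 promoter, and the 4 peaks of the region lay in the flanks or at AGPAT1, with fold enrichments of 3.05 to 4.58.

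PBX3, the PBX protein best known as a partner of HOXA9 in leukemia, had the highest promoter peak of the 7 genes for both marks in sgNeg. Its sgNeg H3K27Ac peak at chr9:128508359-128511269 was 2911 bp wide with a fold enrichment of 7.14 (percentile 99.7, fold rank 1144) and covered 8 of its 12 starts. In sgNpm1A, nothing of this peak was covered. The nearest sgNpm1A peak (153 bp, fold enrichment 2.84, percentile 36.0) began 886 bp downstream of the start, just past the end of the sgNeg peak at 807 bp. Its sgNeg H3K4me3 peak at chr9:125746797-125748807 was 2011 bp wide with a pileup of 50 fragments (37.1-65.9), a fold enrichment of 10.6 (percentile 99.6) and width rank 642, and covered its whole RefSeq window. No sgNpm1A H3K4me3 peak lay at the promoter.

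The introns of PBX3 behaved less uniformly than its start. There were 12 intronic H3K27Ac peaks in sgNeg and 8 in sgNpm1A, with median percentiles of 69.4 and 63.4, and 3 peaks of each list overlapped one of the other. The highest sgNpm1A peak of the whole region was intronic, at chr9:128670567-128670741, whose sequence is printed above, with a fold enrichment of 3.41 (percentile 88.4). It lay inside a sgNeg peak with a fold enrichment of 3.07. The sgNeg peak located 10790 to 12528 bp downstream of the start (1739 bp, fold enrichment 3.45) had no counterpart in sgNpm1A.

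PBX4, a PBX paralog best known from the testis, had the most peaks of the 7 regions. Its region on chromosome 19 held 39 H3K27Ac peaks in sgNeg and 25 in sgNpm1A, and was acetylated over 27.2% and 17.7% of its length. Chromosome 19 as a whole was covered more densely than the genome, 13.1% and 8.12% against 7.11% and 6.29%. The promoter peak of highest fold enrichment lay at an internal start in both lists, at chr19:19673093-19674514 in sgNeg (3.66, percentile 94.5) and chr19:19673203-19674383 in sgNpm1A (2.99, percentile 56.6), and 83.1% of the sgNeg peak was covered in sgNpm1A. At the main start, sgNeg had a 432 bp peak (fold enrichment 2.95) and sgNpm1A had none. H3K4me3 was not called within 1 kb of the 1 RefSeq start of PBX4 in either list. Of the 28 sgNeg peaks in the region, 2 lay near internal GRCh37 starts by distance, the higher at 55649 to 56022 bp (fold enrichment 4.16, percentile 85.2), close to the start that carried the highest H3K27Ac promoter peak, and no sgNpm1A peak lay there. The highest sgNpm1A H3K27Ac peak of all 7 regions, with a fold enrichment of 4.16 (percentile 98.5), lay in the flank of PBX4 at chr19:19743456-19743788 and overlapped a sgNeg peak with a fold enrichment of 3.50.

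PKNOX1, which like MEIS proteins binds PBX, followed the pattern of PBX3. Its sgNeg H3K27Ac peak at chr21:44393180-44396306 was 3127 bp wide with a fold enrichment of 6.37 (percentile 99.4) and lay across the main start, from -1492 to 1634 bp. No sgNpm1A peak overlapped it, and the best sgNpm1A promoter peak, with a fold enrichment of 2.86 (percentile 38.1), lay at internal starts 45802 to 47797 bp downstream. Its sgNeg H3K4me3 peak at chr21:42975173-42975867 had a pileup of 31 fragments (21.1-44.0), a fold enrichment of 6.66 and percentile 97.9, and lay 611 to 1305 bp downstream of the start. It was absent in sgNpm1A. Of the gene pairs, PBX3 and PKNOX1 were the most alike over the 4 promoter percentiles, with a Euclidean distance of 2.77, and MEIS3 and PBX2 the least, with 158. The genes most like MEIS1 by this distance among 19073 genes were EFCAB11, at 3.54, and ATP6V1G2 and NFKBIL1, at 4.52 each. The latter 2 had the same 4 percentiles, and this likeness is a description over 4 libraries. It rests on the starts and the window used. With GRCh37 starts added by distance, the sgNeg H3K4me3 percentile of MEIS1 was 85.2 in place of 62.6. With a promoter window of 2.5 kb, its change in H3K27Ac percentile was -3.69 in place of -76.5.

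The genes also differed in how much of each sgNeg promoter peak the sgNpm1A list still covered. At the 4 genes with a H3K27Ac percentile of at least 99, MEIS1, PBX2, PBX3 and PKNOX1, between 0 and 1.86% of the peak was covered. At MEIS2, MEIS3 and PBX4, 45.2% to 83.1% was covered, but those peaks lay at internal starts. At the start of the gene record, MEIS3 and PBX4 had a peak in sgNeg (percentiles 59.7 and 70.2) and none in sgNpm1A. MEIS2 had none there in either list. Over all genes, 12.8% of the length of 2492 promoter peaks at or above percentile 99 was covered in sgNpm1A, and 65.4% of these peaks had no sgNpm1A peak at all. For the 11471 promoter peaks below percentile 99 the values were 25.4% and 54.7%. For H3K4me3, none of the 5 promoter peaks was covered, beside 97.3% of 2662 strong peaks and 91.3% of 9411 weaker peaks that had no sgNpm1A peak.

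**Figure D3:**
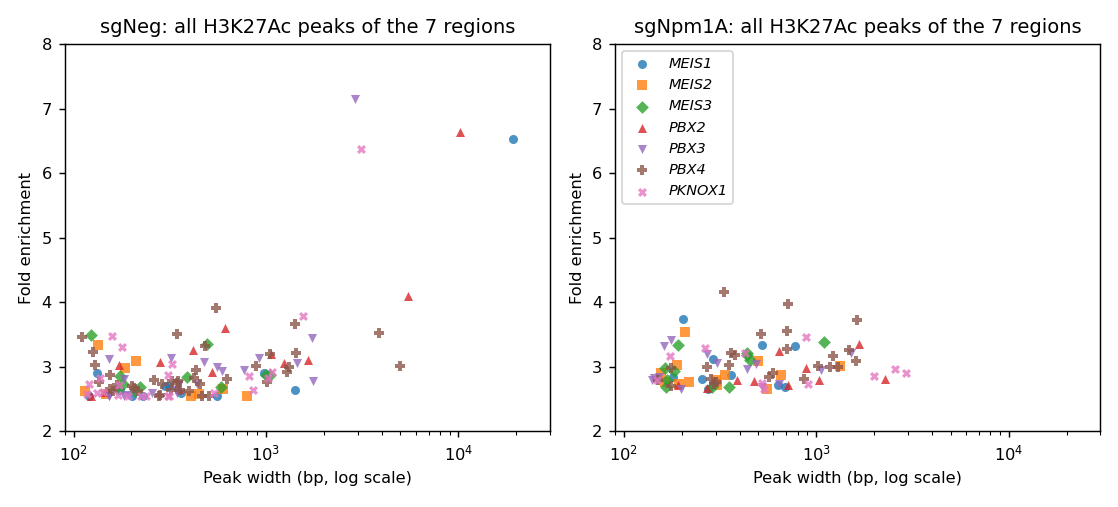
Width (bp, log scale) against fold enrichment for each H3K27Ac peak of the 7 regions, sgNeg left and sgNpm1A right, with 1 symbol per gene. In sgNeg, the promoter peaks of MEIS1, PBX2, PBX3 and PKNOX1 stand apart at fold enrichments of 6.37 to 7.14 and widths of 2911 to 19181 bp, and no sgNpm1A peak exceeds a fold enrichment of 4.16.

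All H3K4me3 promoter peaks that the 7 genes had in sgNeg at RefSeq starts were missing in sgNpm1A, as were most over all genes. In sgNeg, 5 of the 7 genes had a H3K4me3 promoter peak (68.3% of all coding genes) and 2, PBX2 and PBX3, reached percentile 99 (15.9%). In sgNpm1A, only MEIS3 had one (9.49%), and none reached percentile 99 (0.188%). The 5 sgNeg promoters with a peak all lacked one in sgNpm1A, as did 88.6% of such promoters over all genes and 95.8% of those at or above percentile 99. With the start of the gene record alone the counts were again 5 (64.6% of all coding genes) and 1 (7.66%). When the GRCh37 starts used for H3K27Ac were added by distance, the counts were 7, with MEIS3 and PBX4, and 1, and no share over all genes could be given for these starts. At RefSeq starts, the percentile was lower for these 5 genes, higher for MEIS3, and 0 in both lists for PBX4, and 96.2% of all promoters with a sgNeg peak were lower. The median change of the 7 genes, with PBX4 at 0, was -94.4 percentile points. Over all genes with a peak in at least 1 of the lists it was -96.8, a set that leaves out genes which, like PBX4, had none.

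Taking promoters, introns, exons and flanks of the 7 regions as a whole, H3K27Ac covered 106455 bp in 128 sgNeg peaks and 53707 bp in 95 sgNpm1A peaks, with length-weighted mean fold enrichments of 4.24 and 3.04. This was 10.7% and 5.42% of 990.83 kb, a ratio of 0.505, where the genome as a whole was covered by 7.11% and 6.29%. Of the acetylated sgNeg length, 45311 bp lay in 20 promoter peaks and 21769 bp in 46 intronic peaks. In sgNpm1A, 14 promoter peaks held 8685 bp and 39 intronic peaks held 16562 bp. The ratio was 0.192 for promoter and 0.761 for intronic peaks. A peak that reaches a start is counted whole as a promoter peak, and the wide peaks of MEIS1 and PBX2 made up most of the sgNeg promoter length. Without these 2 genes, the ratios were 0.537 and 0.734. The median percentile of intronic peaks was 38.4 in sgNeg and 44.3 in sgNpm1A. By region, the ratio of acetylated length was lowest at MEIS1, at 0.187, followed by PBX2 at 0.383, PBX3 at 0.425, PBX4 at 0.653, PKNOX1 at 0.695 and MEIS3 at 0.856, and was above 1 only at MEIS2, at 1.68. With no replicate, it is not known which neighbours in this order differ, and the order depends on the flank. Within the gene body alone, PBX2 was lowest, at 0.0835, and MEIS1 was at 0.139, and with 50 kb of flank PBX2 was at 0.681 and MEIS1 at 0.192. Among the top 20000 peaks, PBX2, PBX3 and PKNOX1 were at 0 and MEIS1 at 0.0106.

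For H3K4me3, 29309 bp in 110 sgNeg peaks and 8031 bp in 19 sgNpm1A peaks were covered, with length-weighted mean fold enrichments of 4.55 and 3.59. This was 2.96% and 0.810% of the regions, a ratio of 0.274, and the genome was covered by 3.04% and 1.79%. The ratio was below 1 at all 7 regions, from 0.0988 at MEIS1 to 0.373 at PBX4. This order too depends on the flank. Within the gene body alone the ratio was 0 at PBX4, PBX2 and MEIS3 and 0.126 at MEIS1. With 50 kb of flank, MEIS1 was again lowest, at 0.0938, and PBX4 highest, at 0.588. Of the sgNeg peaks, 12 (10.9%, 95% Wilson interval 6.35-18.1) overlapped a sgNpm1A peak, and 22.6% did over the genome. Of the 19 sgNpm1A peaks, 11 (57.9%) overlapped a sgNeg peak, beside 61.2% over the genome. For H3K27Ac, 56 of the 128 sgNeg peaks (43.8%, 35.5-52.4) and 54 of the 95 sgNpm1A peaks (56.8%) overlapped, beside 50.7% and 51.4% over the genome.

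**Figure D4:**
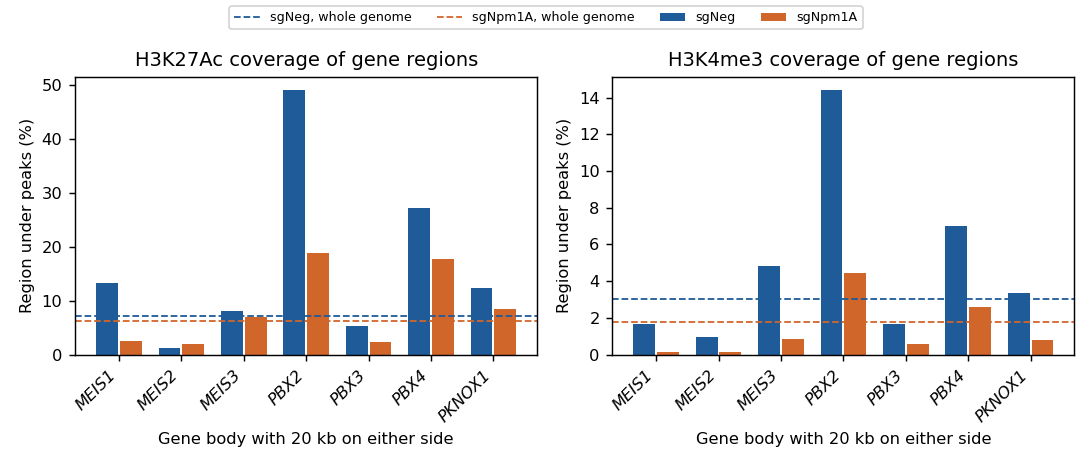
Percent of each gene region (gene body with 20 kb on either side) under peaks, H3K27Ac left and H3K4me3 right, with bars per guide from 0 and dashed lines for the whole genome. For H3K27Ac, sgNpm1A is below sgNeg in 6 regions and above it at MEIS2, and for H3K4me3 it is below sgNeg in all 7.

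The 4 lists coincided at 7 places of the 7 regions when positions were taken as distance from the RefSeq start, and none of these places was a promoter of the 7 genes. Of them, 3 were in the PBX4 region, 2, under the same sgNpm1A peaks, in the flank of PBX3, 1 in that of PBX2 and 1 in the body of PKNOX1. The PKNOX1 place, 41758 to 41803 bp downstream of its start, had H3K27Ac fold enrichments of 2.87 in sgNeg and 3.22 in sgNpm1A, and H3K4me3 fold enrichments of 4.99 and 3.56. At the places in the PBX4 region, the H3K27Ac fold enrichment was 2.72 to 2.76 in sgNeg and 2.69 to 3.98 in sgNpm1A.

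Other TALE genes, comprising TGIF1, TGIF2, MKX and 6 IRX genes, gave both directions for H3K27Ac. The gene of the PBX-binding protein PBXIP1, not a TALE gene, was listed with them and was higher in sgNpm1A (percentiles 79.9 and 94.5). A promoter peak was called at 9 of these 10 genes in sgNeg (79.1% of all coding genes) and at 8 in sgNpm1A (57%). Percentile 99 was reached by 3 in sgNeg (15.4%). In sgNpm1A, 5 were lower, beside 82.9% of all promoters with a sgNeg peak, and 5 were higher. IRX5 had a fold enrichment of 12.3 in sgNeg and 2.88 in sgNpm1A, and MKX 10.5 and 3.00. For H3K4me3, 10 had a peak in sgNeg (68.3% of all coding genes) and 3 in sgNpm1A (9.49%). Of these 10, 9 were lower in sgNpm1A (96.2% of all promoters with a sgNeg peak) and IRX4 was higher (percentiles 95.9 and 97.9).

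The HOX genes HOXA7, HOXA9, HOXA10, HOXB4, HOXB6 and HOXB7, whose proteins bind DNA with these cofactors, all reached percentile 99 for H3K27Ac in sgNeg. All 6 were lower in sgNpm1A (82.9% of all promoters with a sgNeg peak), where 4 had a promoter peak (57% of all coding genes) and none reached percentile 99. They do not count as 6 separate measurements, since HOXA7, HOXA9 and HOXA10 shared 1 sgNeg peak of 51584 bp and HOXB4 and HOXB6 shared 1 of 59874 bp. For H3K4me3, 4 had a promoter peak in sgNeg and none in sgNpm1A. Of 8 genes known as targets of HOXA9 and MEIS1 in myeloid cells (FLT3, SOX4, MYB, CD34, ERG, LMO2, BCL2 and CDK6), all 8 had a H3K27Ac promoter peak in sgNeg and 5 in sgNpm1A, 4 reached percentile 99 in sgNeg, and all 8 were lower in sgNpm1A. For H3K4me3, 6 had a peak in sgNeg and none in sgNpm1A. The counts of lower H3K27Ac promoters and of lost H3K4me3 peaks lie near the shares over all promoters with a sgNeg peak, 82.9% and 88.6%. The 4 of 8 targets and the 6 HOX genes at or above percentile 99 in sgNeg stand beside 15.4% of all coding genes. Among the 8 targets, CDK6 had the highest H3K27Ac fold enrichment in sgNeg, 12.2, and 3.58 in sgNpm1A.

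The label of a myeloid line was checked on marker genes. OCI-AML2 and OCI-AML3 are both AML lines, so this check cannot tell which of them a list is from. Of the myeloid markers SPI1, CEBPA, CD33, MPO, CSF3R and ITGAM, all 6 had a H3K27Ac promoter peak in sgNeg (79.1% of all coding genes). In sgNpm1A 5 had one (57%), and in sgNeg 3 reached percentile 99 (15.4%). T lymphoid, epithelial and liver markers (CD3D, CD3E, KRT8, CDH1 and ALB) all had a H3K27Ac peak in sgNeg too, but none reached percentile 99, and their percentiles ranged from 11.2 to 75.4. In H3K4me3, 5 of the 6 myeloid markers had a sgNeg peak, against 2 of the 5 others and 68.3% of all coding genes. In sgNpm1A, 5 of the 6 myeloid markers were lower for H3K27Ac (82.9% of all promoters with a sgNeg peak) and ITGAM was higher (93.7 and 98.9). None of the 6 had a H3K4me3 promoter peak in sgNpm1A (9.49% of all coding genes). Among the others, the H3K27Ac percentile was higher in sgNpm1A for CD3D (52.8 and 63.1), CD3E (11.2 and 30.4) and CDH1 (69.7 and 80.6) and lower for KRT8 (75.4 and 44.5) and ALB (30.0 and no peak), and CD3D had a H3K4me3 promoter peak in sgNpm1A alone (percentile 92.6). The part that the shift of these markers, or the lower background pileup of the sgNpm1A H3K4me3 list, had in the values at the 7 genes was not tested.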

How the data were processed

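ChIPmentation (chromatin immunoprecipitation with tagmentation by Tn5 transposase) libraries of OCI-AML3 cells were used, 1 for each guide and mark. The 2 inputs were not used here. The sample titles gave the groups. The labels state 3 days of culture, and the study's own text a longer period. Per the submitters' processing notes, bcl2fastq 2.17, Trimmomatic 0.33, Bowtie 1.1.2, MACS2 2.1.0, deepTools and hg38 were used. The calling limit and the use of the inputs are not given in the sources used here, and no shift of Tn5 cut positions was stated, which moves peak edges by a few bases only.

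Peaks were called by the authors in each library. Fold enrichment, as deposited, is the ratio between observed and expected pileup, averaged over the region for H3K27Ac (broad peaks) and taken at the summit for H3K4me3 (narrow peaks). The deposited −log10 p-values and −log10 q-values belong to the same regions or summits. The deposited score is a scaled −log10 q-value and was not used. The last H3K27Ac peaks of chromosome 1 ended at 249218478 (sgNeg) and 249212461 (sgNpm1A), as fits GRCh37 (length 249250621), although hg38 is named. H3K4me3 peaks on chromosome 17 ended at 83201880 and 83201881, past its GRCh37 length of 81195210. The deposited names tag the H3K27Ac lists OCI2 and the H3K4me3 lists OCI3, which leaves the line of the former unsettled.

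Starts for H3K27Ac came from GENCODE lifted to GRCh37, with 146567 starts of 20162 coding genes. For H3K4me3, RefSeq gene records and promoter windows of GRCh38 gave 28034 starts of 19671 coding genes, and "gene body" stands for introns and exons. The 9 RefSeq windows of the 7 genes each matched GRCh37 exactly 1 time, which gave distances from a common start. An overlap is at least 1 bp. Tied fold values share their mean rank. H3K4me3 pileups were recovered from the fold values, whole within 0.01 fragments for 100% of peaks in both lists. Python 3.11.15, pandas 2.3.3, numpy 2.4.6 and scipy 1.17.1 were used. Overlaps and the choice of the promoter peak were tested on simulated data, and percentiles were not. The members and gene lists were chosen with earlier results of these data known. All 7 members were named, with every promoter peak of highest fold enrichment. The widest and the highest peaks of the regions were named only in part, and a few other peaks were named after their values were seen. A further marker list is not reported here. Alternatives were stricter q-values, a fold enrichment of at least 4, the top 20000 peaks, other promoter windows, flanks and overlaps, and, chosen after seeing the data, the start of the gene record alone and GRCh37 starts added by distance for H3K4me3.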

Additional observations from a re-analysis of the deposited data

How the results depend on the processing

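No paired analysis was possible because each group holds 1 library. The count of genes with a H3K27Ac promoter peak in sgNpm1A, 7, depended on the choices made. It was 2 at a q-value under 0.01, 1 with the start of the gene record alone, and 0 at a q-value under 1e-05, with the fold limit of 4 and among the top 20000 peaks. In sgNeg the count of 7 became 4 at a q-value under 1e-05 and 4 with the fold limit of 4. The H3K4me3 counts stayed within 1.5 times of 5 and 1 under every alternative run. The ratio of H3K27Ac covered length, 0.505, was 0.305 at a q-value under 0.01, 0 under 1e-05, 0.00813 with the fold limit of 4, 0.0638 among the top 20000 peaks, 0.457 with no flank and 0.623 with 50 kb. For H3K4me3, 0.274 became 0.299, 0.109, 0.161, 0.190, 0.102 and 0.418 under the same choices in the same order. The overlapped share of sgNeg H3K27Ac peaks, 43.8%, was 15.6% when 50% of both peaks had to overlap, 21.2% at a q-value under 0.01 and 0 with the fold limit of 4 (5 peaks). For H3K4me3, 10.9% became 2.73% at 50% and 0 with the fold limit of 4 (15 peaks). Both ratios stayed below 1 throughout. In 4 cases a direction turned. At MEIS3, the H3K27Ac ratio was 4.24 at a q-value under 0.01, the change of H3K27Ac percentile was -59.7 with the start of the gene record alone, and the H3K4me3 ratio was 1.89 with the fold limit of 4. At PBX4, the H3K27Ac ratio was 1.36 among the top 20000 peaks. Stricter choices leave fewer peaks by construction, and otherwise the cause was not tested. The fragment counts of 16 to 50 at H3K4me3 promoter summits limit precision to the intervals given.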
